A study of Mus musculus with 6 samples.

Results

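The genes described here build the vesicles that carry proteins between the endoplasmic reticulum and the Golgi apparatus. They are 45 genes for the COPI and COPII coats, the small GTPases that start coat assembly, the SNAREs and tethers that bring vesicles to their target, and the receptors that pack cargo. The list was named gene by gene, and a gene was measured through the Affymetrix Mouse430_2 probe sets whose annotation carries its symbol alone, out of 18193 genes with such a probe set. Where a gene had more than 1 probe set, the brightest one over the 6 arrays stood for it. All 45 genes had a probe set, and 44 passed the filter on dim signals. The exception was Tmed2, whose brightest single-symbol probe set gave 18.0, 3.41 and 10.5 in transgenic and 19.0, 20.4 and 18.5 in wild type muscle.

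The transgenic group consisted of integrin alpha7 transgenic mice and the control group of wild type mice. Mice of both groups were female, aged 5 weeks, non-fasted and of an SJ6/C57BL6 background, and RNA was taken from gastrocnemius and soleus muscle. Each of the 3 arrays per genotype carried an equal mixture of RNA from 6 animals, so that 18 animals of each genotype were used. The promoter that drives the transgene, the number of founder lines and the meaning of the word intronic in the titles of the control arrays are not stated in the labels. The question was how muscle transcripts differ when the laminin receptor chain integrin alpha7 is overexpressed.

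COPII is the coat of vesicles that leave the endoplasmic reticulum. The GTPase Sar1 recruits the inner layer of Sec23 and Sec24, which binds cargo, and the outer layer of Sec13 and Sec31 follows. COPI, recruited by Arf GTPases, coats vesicles that return escaped residents and receptors from the Golgi apparatus to the endoplasmic reticulum. In muscle, both routes serve membrane and secreted proteins, among them receptors of the fibre surface and proteins of the extracellular matrix.

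Itga7 itself gave signals of 2498, 2144 and 2072 on the transgenic arrays, against 254, 308 and 313 on the wild type arrays, a clear gap in the direction of the labels. The deposited signal is a linear brightness per probe set, and the arrays had medians of 34.0 to 37.3 in the transgenic and 36.2 to 38.4 in the wild type group. Ratios of 3′ to 5′ control probe sets were 0.778 to 0.809 in transgenic and 0.796 to 0.807 in wild type muscle for Gapdh, and 0.873 to 0.959 in transgenic and 0.805 to 0.909 in wild type muscle for beta-actin. All 8 marker genes of skeletal muscle fibres were measured. Their summed signal was 146816 to 153592 in transgenic and 160664 to 164614 in wild type muscle, without overlap, and 7 of the 8 had negative differences. Several of these probe sets were at or near the highest signal of their array, which was 21386 to 22469 in transgenic and 23547 to 23952 in wild type muscle. Whether saturation or scaling has a part in these differences was not tested. The summed signal of 5 endothelial markers was 974 to 1088 in transgenic and 1130 to 1267 in wild type muscle, also without overlap, and all 5 differences were negative. The sums for fibroblasts, tendon, smooth muscle, macrophages, lymphocytes, adipocytes and Schwann cells overlapped, with 4 of 5 adipocyte and 3 of 5 Schwann cell markers measured. For fibroblasts and macrophages only transgenic replicate 3 reached the wild type range, and 4 of 6 and 4 of 5 markers had negative differences. Of the single markers in these lists, Dcn at -0.31, Csf1r at -0.21 and Cspg4 at -0.22 were lower without overlap. Ucp1 at 0.37 and Rgs5 at 0.12 were higher without overlap. Among all genes, 6.67% were higher and 7.57% lower without overlap. In a whole muscle, fewer cells of a type and less RNA per cell cannot be told apart, and the part of these shifts in the results below was not tested.

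The vesicle transport genes lay slightly higher in transgenic muscle as a group, and no single one of them passed the test. Of the 44 genes, 33 had positive and 11 negative differences on the log2(signal + 16) scale, with a median of 0.15, which is 1.11-fold, beside -0.00 over the brightest probe sets of all 12938 genes kept. By limma's moderated test with Benjamini-Hochberg adjustment over 27022 probe sets, 0 of the 44 were called at an adjusted p of 0.05 in either direction, beside 0.147% of all genes (0.124% higher and 0.0232% lower), and the smallest adjusted p was 0.245. At an unadjusted p under 0.05, 14 members were higher and 0 lower, beside 3.93% higher and 4.26% lower (8.19% in all) among all genes. All 3 transgenic arrays lay above all 3 wild type arrays for 15 members, or 34.1%, beside 6.67% of all genes. All 3 lay below for 1 member, Copz2, or 2.27%, beside 7.57%. Because the members were chosen with earlier results of these data known, these shares are a description and not independent support. With arrays scaled to equal medians, which raised the median of all genes from -0.0038 to 0.062, 40 members were positive and 4 negative, and the arrays of Copz2 overlapped. Arrays were also split by the recorded hour of hybridisation, before noon (round 1) or later (round 2). Inside hybridisation round 1, which held 4 arrays, the median was 0.12 with 36 positive, and inside round 2, with 1 array of each genotype and no test, it was 0.15 with 34 positive. Each fluidics module of the array runs held arrays of 1 genotype only. Effects of module and genotype therefore cannot be told apart in any difference given here.

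**Figure D1:**
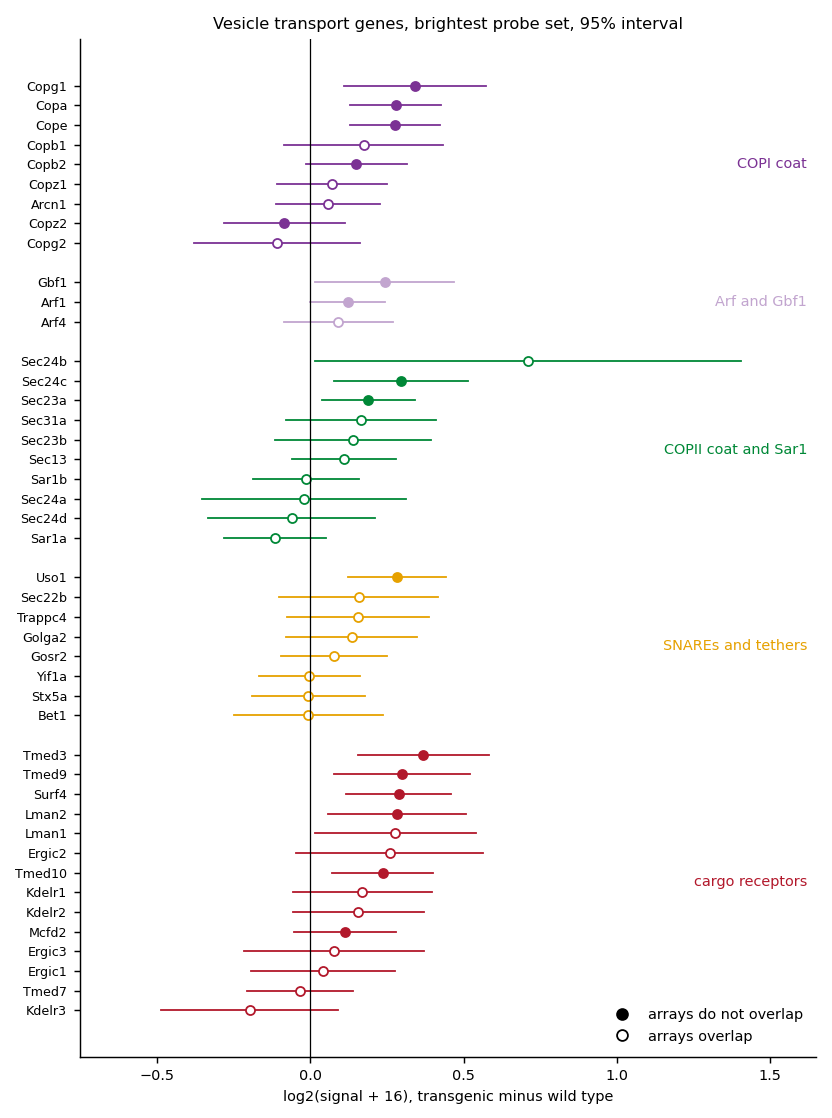
Log2 difference in signal, transgenic minus wild type, for the brightest probe set of each of 44 vesicle transport genes, grouped by role, with 95% intervals from limma. Filled points mark the 16 genes whose arrays do not overlap between genotypes. Most points lie to the right of 0, between -0.20 for Kdelr3 and 0.71 for Sec24b, and 30 of the 44 intervals cover 0.

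The size of any difference was limited. For 43 of the 44 genes, all but Sec24b, both 95% bounds were closer to 0 than 1 log2 unit, and for 36 they were closer than 0.5. The interval lay wholly above 0 for 14 genes and wholly below 0 for none. An estimate of at least 1.2-fold was reached by 11 genes.

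The array-by-array level of the group was read as the median, over the 44 genes, of each array's deviation from the mean of the 6 arrays. It was 0.06, 0.04 and 0.09 on the log2 scale in transgenic replicates 1, 2 and 3, and -0.09, -0.05 and -0.03 in wild type replicates 1, 2 and 3. The genotypes did not overlap in this measure. Transgenic replicate 3 was the highest of the 6 arrays for 19 of the 44 genes, and wild type replicate 1 the lowest for 16. Among the cargo receptors the same measure was 0.06, -0.02 and 0.18 in the transgenic arrays, so that transgenic replicate 3 stood well above transgenic replicate 2. The COPII genes were more even, at 0.08, 0.07 and 0.07 in transgenic and -0.06, -0.05 and -0.06 in wild type arrays.

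**Figure D2:**
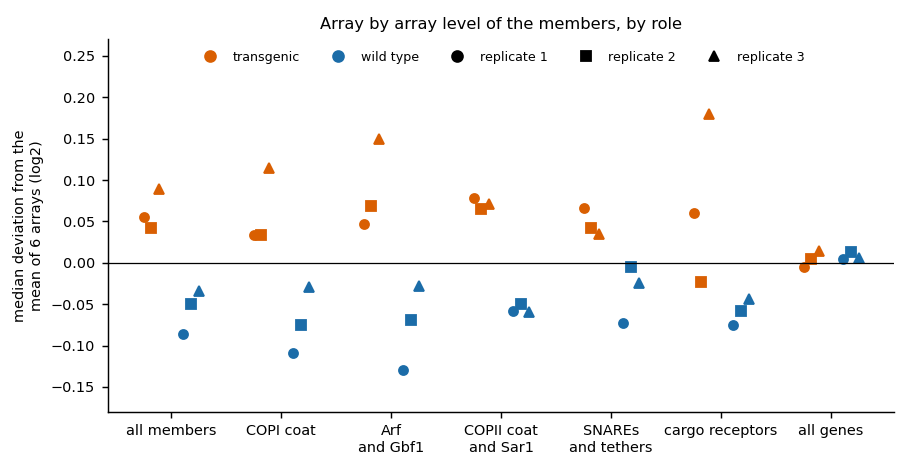
Median deviation of each array from the mean of the 6 arrays, on the log2 scale, for all 44 members, for each role group and for all genes. Orange marks transgenic and blue wild type arrays, and the marker shape gives the replicate. Transgenic arrays lie above wild type arrays in every role group, and all genes stay near 0.

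Promoters of the members were searched for short motifs known from the endoplasmic reticulum stress response and from other control of secretory genes. RefSeq promoters of build GRCm38.p6, running from 250 bases before to 50 bases after a gene start, matched 39 of the 45 genes with 44 promoters. There was no entry used for Arcn1, Kdelr2, Lman1, Tmed2, Tmed7 and Trappc4. The motif TGACGTGG, the core of the unfolded protein response element known as a binding site of XBP1, was found on either strand in 9 of the 44 promoters, or 20.5%, beside 0.676% of all 32851 promoters and 1.06% of 13348 promoters of genes kept on the arrays. Its reverse complement contains CCACGT, which was found in 24 of the 44, or 54.5%, beside 8.31% of all promoters and 10.9% of those of kept genes. The endoplasmic reticulum stress elements ERSE and ERSE-II were found in 0 of the 44, beside 0.119% and 0.0365% of all promoters and 0.112% and 0.0599% of those of kept genes. Both are so rare that 0 of 44 does not set the members apart from other genes. In 10 promoters of endoplasmic reticulum chaperones, ERSE was found in 6, ERSE-II in 1, CCACGT in 2 and TGACGTGG in 0. The cyclic AMP response element TGACGTCA was found in 2 of the 44, or 4.55%, beside 1.79% of all promoters and 2.77% of those of kept genes. The E-box CACGTG, which can overlap CCACGT, was found in 4, or 9.09%, beside 7.15% and 9.53%. The members' promoters had a median of 58.0% G and C and 20 CG dinucleotides, beside 60.3% and 19 in promoters of kept genes. Motifs were chosen with the differences known, and a match describes the letters only.

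The stretches that hold TGACGTGG are shown because they are the letters that several members of different roles share close to the gene start. Each runs 5′ to 3′ on the gene's strand, with the motif or its reverse complement in capitals. They lie at chr3:123267454-123267493 on the plus strand for Sec24d, chr7:114254685-114254724 on the minus strand for Copb1, chr9:98563708-98563747 on the plus strand for Copb2, chr11:59228223-59228262 on the minus strand for Arf1, chr12:59011988-59012027 on the minus strand for Sec23a, chr15:79516362-79516401 on the plus strand for Kdelr3, chr19:8741417-8741456 on the plus strand for Stx5a and chr19:46152530-46152569 on the plus strand for Gbf1. The motif lies in the promoter windows of 2 neighbouring starts of Arf1 as 1 site, and Stx5a has a second match further downstream that is not shown.
Sec24d: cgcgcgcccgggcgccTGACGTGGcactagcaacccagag
Copb1: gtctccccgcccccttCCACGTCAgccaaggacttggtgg
Copb2: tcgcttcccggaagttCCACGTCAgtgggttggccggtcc
Arf1: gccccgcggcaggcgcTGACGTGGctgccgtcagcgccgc
Sec23a: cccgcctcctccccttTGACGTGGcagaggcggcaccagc
Kdelr3: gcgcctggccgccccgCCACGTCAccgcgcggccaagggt
Stx5a: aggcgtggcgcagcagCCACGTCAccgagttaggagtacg
Gbf1: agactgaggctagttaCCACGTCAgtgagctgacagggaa

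Of these 8 genes, the arrays of Copb2, Arf1, Sec23a and Gbf1 did not overlap and lay higher in transgenic muscle, while those of Sec24d, Copb1, Kdelr3 and Stx5a overlapped, with differences of -0.06, 0.17, -0.20 and -0.01. CCACGT was found in 11 of the 15 members that were higher without overlap and in 11 of the 24 other kept members with a promoter. It was in 12.9% of kept genes with a promoter. In the same order, TGACGTGG was found in 4, 4 and 1.11%, TGACGTCA in 1, 1 and 3.30%, and CACGTG in 3, 1 and 11.4%. The members were split by the differences themselves and the motifs chosen with them known. These counts are a description with no test and no support for a link. The promoter of Uso1 is shown as the member with CCACGT 4 times, 2 of them overlapping on opposite strands. It lies at chr5:92137688-92137987 on the plus strand, with each match in capitals.
Uso1: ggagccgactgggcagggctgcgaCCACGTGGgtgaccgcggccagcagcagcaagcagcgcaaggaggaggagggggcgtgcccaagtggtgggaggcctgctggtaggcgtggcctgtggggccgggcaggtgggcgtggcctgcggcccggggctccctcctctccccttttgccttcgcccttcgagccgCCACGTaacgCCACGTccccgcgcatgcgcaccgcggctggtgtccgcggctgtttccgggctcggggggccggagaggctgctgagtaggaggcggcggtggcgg

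Subunits of the COPI coat were measured through 9 genes. Of these, 7 had positive differences, with a median of 0.15, and 0 were called, beside 0.147% of all genes. Without overlap, 4 were higher and 1 lower, or 44.4% and 11.1%, beside 6.67% and 7.57% of all genes. Copa, the alpha subunit, gave 1359, 1406 and 1478 on the transgenic arrays and 1126, 1169 and 1193 on the wild type arrays. Every transgenic array lay well above every wild type array. The log2 difference was 0.28, with 95% bounds of 0.13 and 0.43, and limma gave it an adjusted p of 0.254. Cope, the epsilon subunit, gave 1639, 1716 and 1635 in transgenic and 1307, 1368 and 1438 in wild type muscle, again with a clear gap. Its log2 difference was 0.28, with 95% bounds of 0.13 and 0.42, and the smallest adjusted p of the brightest probe sets, 0.245.

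The gamma subunit, which links the coat to its cargo and to Arf, is made from either of a pair of genes, and their estimates differed in sign. Copg1 gave 456, 441 and 499 in transgenic and 376, 317 and 402 in wild type muscle, 0.34 higher in log2 signal (limma, adjusted p = 0.417). A dimmer probe set of Copg1 gave 0.06. Copg2 gave 181, 158 and 193 in transgenic and 184, 179 and 214 in wild type muscle, groups that overlapped, with a difference of -0.11. That estimate was -0.034 without transgenic replicate 2, -0.035 without wild type replicate 3 and -0.17 without transgenic replicate 3. The zeta subunit likewise has a pair of genes. Copz1 gave 0.07 and overlapped, and Copz2 gave 329, 335 and 334 in transgenic and 363, 339 and 361 in wild type muscle, a narrow gap with a log2 difference of -0.08. A second probe set of Copz1, below the filter, gave at most 11.95 in transgenic and at least 29.2 in wild type muscle.

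The remaining coat subunits had positive differences on their brightest probe sets. Copb2, the beta-prime subunit, gave 1148, 1048 and 1204 in transgenic and 995, 1014 and 1048 in wild type muscle, where the nearest arrays of the genotypes almost touched. Its second probe set gave 363, 358 and 353 in transgenic and 269, 352 and 265 in wild type muscle, also without overlap. Copb1, the beta subunit, gave a log2 difference of 0.17 and Arcn1, the delta subunit, 0.06, and the arrays of both overlapped. For Arcn1, the further probe sets gave 0.18 with overlap and 0.14 without.

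Of the genes that recruit COPI, all 3 had positive differences and 0 were called, beside 0.147% of all genes. Without overlap, 2 were higher and 0 lower, beside 6.67% and 7.57% of all genes. Arf1, a GTPase of the Golgi apparatus, gave 5183, 5221 and 5183 in transgenic and 4551, 4707 and 5072 in wild type muscle. The transgenic arrays agreed closely, and wild type replicate 3 came near them. A dimmer probe set of Arf1 gave 0.09 with overlap. Gbf1, the exchange factor that loads Arf proteins with GTP, gave 333, 371 and 406 in transgenic and 290, 321 and 317 in wild type muscle, 0.24 higher in log2 signal (limma, adjusted p = 0.607). Its other kept probe sets disagreed with each other, at 0.43, -0.15 and -0.44, the last of them at dim signals of 2.91 to 40.2. Arf4 gave 0.09 and overlapped. Its dimmest kept probe set, of the kind that can detect related sequences (suffix x), gave -0.26, also with overlap.

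In the COPII coat, 6 of 10 genes had positive differences, with a median of 0.13, and 0 were called, beside 0.147% of all genes. Without overlap, 2 were higher and 0 lower, beside 6.67% and 7.57% of all genes. Sec23a, the GTPase-activating subunit of the inner coat, gave 1367, 1273 and 1319 in transgenic and 1100, 1188 and 1180 in wild type muscle. The groups were separate, with a log2 difference of 0.19, 95% bounds of 0.04 and 0.34 (limma, adjusted p = 0.532). Its paralog Sec23b gave 0.14 and overlapped, because wild type replicate 3, at 308, was above every transgenic array.

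The Sec24 proteins are the cargo-binding subunits, and the estimates of their 4 genes differed in sign. Sec24c gave 630, 650 and 762 in transgenic and 593, 563 and 497 in wild type muscle, 0.30 higher in log2 signal (limma, adjusted p = 0.481), and its dim second probe set, at 30.8 to 37.3 in transgenic and 11.7 to 27.7 in wild type muscle, did not overlap either. Sec24b had the largest estimate of all members at 0.71, but from 128, 134 and 168 in transgenic and 93.9, 143 and 35.8 in wild type muscle. That estimate rested on the low wild type replicate 3. Without that array it was 0.26, without wild type replicate 2 it was 1.07, and a second probe set of Sec24b gave -0.10. Sec24a gave -0.02 and Sec24d -0.06, both with overlap. Equal array medians, which shifted all genes upward by a like amount, gave 0.05 and 0.01.

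The outer coat genes Sec13 and Sec31a gave 0.11 and 0.17, with overlap. Neither GTPase gene of the Sar1 pair was separated on its brightest probe set. Sar1a gave 1122, 1025 and 1153 in transgenic and 1232, 1220 and 1124 in wild type muscle, a difference of -0.11, while its dimmer probe set gave 812, 795 and 908 in transgenic and 768, 736 and 779 in wild type muscle, without overlap the other way. Sar1b gave 8455, 8402 and 6752 in transgenic and 7980, 8030 and 7712 in wild type muscle. Its difference of -0.01 hid a spread in which transgenic replicate 3 was low and the other transgenic arrays were high, and it was 0.09 without that replicate.

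**Figure D3:**
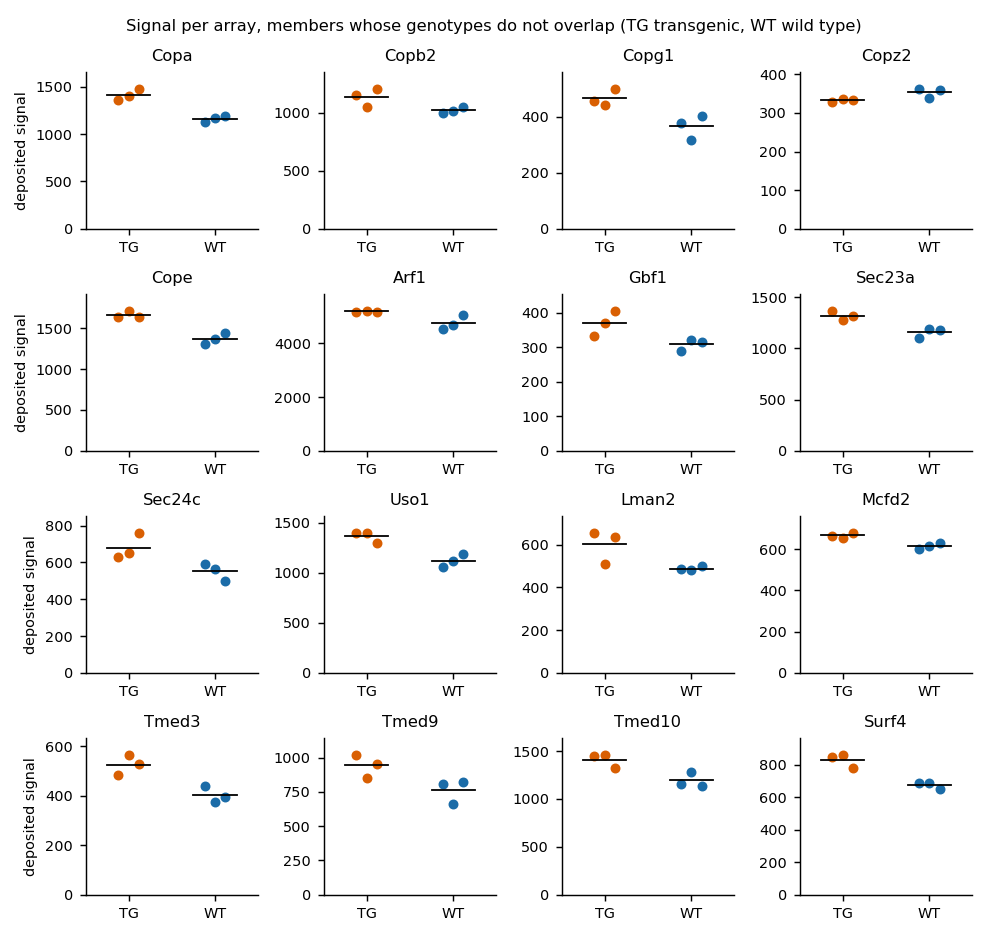
Deposited signal per array, on a linear axis from 0, for the 16 vesicle transport genes whose transgenic (TG, orange) and wild type (WT, blue) arrays do not overlap. Each point is 1 array of 6 pooled animals and the bar is the mean of 3. For 15 genes the transgenic arrays are the higher ones, and for Copz2 they are the lower ones.

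Among the SNAREs and tethers, 5 of 8 genes had positive differences, with a median of 0.11, and 0 were called, beside 0.147% of all genes. Without overlap, 1 was higher and 0 lower. With 8 genes, 1 is 12.5%, beside 6.67% of all genes. It was Uso1, also called p115, a coiled-coil tether that docks vesicles at the Golgi apparatus. It gave 1399, 1397 and 1299 in transgenic and 1060, 1111 and 1188 in wild type muscle, well apart. The log2 difference was 0.28, with 95% bounds of 0.12 and 0.44, and limma gave it an adjusted p of 0.290. Golga2, the matrix protein GM130 to which Uso1 binds, gave 0.14, and Trappc4, a subunit of the TRAPP tethering complex, gave 462, 407 and 387 in transgenic and 334, 399 and 391 in wild type muscle. Their groups overlapped, and the Trappc4 difference of 0.16 was -0.01 inside round 2, 0.085 without transgenic replicate 1 and 0.078 without wild type replicate 1.

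The SNAREs form the bundle that fuses vesicle and target membranes. Sec22b gave 0.16, Gosr2 0.08 and Stx5a -0.01, all with overlap. Bet1 gave -0.01 on its brightest probe set, with 242, 211 and 245 in transgenic and 220, 229 and 250.8 in wild type muscle. A slightly dimmer probe set of Bet1 gave 222, 212 and 225 in transgenic and 177, 171 and 160 in wild type muscle, a difference of 0.35 without overlap. A dimmer probe set of Gosr2 also did not overlap, at 204 to 235 in transgenic and 168 to 184 in wild type muscle. Yif1a, a membrane protein of vesicles that bud from the endoplasmic reticulum, gave -0.00 on its brightest probe set. A slightly dimmer probe set of Yif1a gave 0.15, with overlap. A dim one with suffix x gave 0.68, with overlap and with wild type replicate 2 at 14.8. With the shift that equal array medians gave to all genes, the brightest probe set of Yif1a gave 0.07, and Bet1 and Stx5a were positive too.

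The cargo receptors were the longest list. Of 14 kept, 12 had positive differences, with a median of 0.20, and 0 were called, beside 0.147% of all genes. Without overlap, 6 were higher and 0 lower, or 42.9% higher beside 6.67% of all genes. Surf4, a receptor that exports soluble secretory proteins, had 5 kept probe sets, all positive, of which 4 did not overlap. The brightest gave 847, 863 and 779 in transgenic and 689, 687 and 652 in wild type muscle, a log2 difference of 0.29 with 95% bounds of 0.12 and 0.46, and limma gave it an adjusted p of 0.313. The probe set of Surf4 with the largest difference, 0.40, gave 555, 593 and 685 in transgenic and 412, 485 and 481 in wild type muscle. It is of the kind that can detect related sequences (suffix x), as are those at 0.210 and 0.106. The brightest and the one at 0.209 are not.

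Lectins carry glycoproteins out of the endoplasmic reticulum. Lman1, the lectin ERGIC-53, gave 1108, 1060 and 840 in transgenic and 887, 698 and 887 in wild type muscle on its brightest probe set, where transgenic replicate 3 overlapped the wild type arrays. Its next probe set gave 799, 869 and 793 in transgenic and 679, 575 and 617 in wild type muscle. That probe set did not overlap, and its adjusted p of 0.189 in limma was the smallest among the 87 kept probe sets of the members, at a log2 difference of 0.39 with an interval of 0.20 to 0.58. A further one gave 476, 420 and 518 in transgenic and 372, 361 and 390 in wild type muscle, also separate. Mcfd2, the calcium-binding partner of Lman1 in the export of clotting factors, gave 666, 657 and 681 in transgenic and 604, 614 and 630 in wild type muscle, a small gap with a difference of 0.11. Lman2 gave 656, 510 and 636 in transgenic and 486, 480 and 498 in wild type muscle, and both of its probe sets were separate.

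The p24 proteins, encoded by the Tmed genes, cycle in both coats and help to select cargo. Tmed3 gave 482, 566 and 528 in transgenic and 438, 376 and 395 in wild type muscle, a log2 difference of 0.37 with 95% bounds of 0.16 and 0.58, and limma gave it an adjusted p of 0.301. Tmed9 gave 1022, 855 and 954 in transgenic and 809, 661 and 826 in wild type muscle, and Tmed10 gave 1444, 1462 and 1320 in transgenic and 1159, 1283 and 1139 in wild type muscle. All 3 genes were separate on their brightest probe sets, with narrow gaps in Tmed9 and Tmed10, and the Tmed9 difference of 0.30 was 0.20 without wild type replicate 2. A dimmer probe set of Tmed9, with suffix x, gave 412, 294 and 294 in transgenic and 241, 272 and 377 in wild type muscle. Its difference was 0.17, with overlap. Tmed7 gave -0.03 with overlap, and its 4 kept probe sets ran from -0.03 to 0.17. Further probe sets that carry the symbols of Tmed2 and Tmed10 together with those of other genes were not used.

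The KDEL receptors return chaperones with that carboxyl-terminal signal from the Golgi apparatus to the endoplasmic reticulum in COPI vesicles. Kdelr1 gave 711, 579.5 and 761 in transgenic and 572, 619 and 616 in wild type muscle. Kdelr2 gave 705, 670 and 854 in transgenic and 683, 672 and 628 in wild type muscle. In both, transgenic replicate 2 lay inside the range of the wild type arrays, and the log2 differences were 0.17 and 0.16. Kdelr3 gave 160, 162 and 214 in transgenic and 205, 217 and 195 in wild type muscle, the most negative difference of the members at -0.20, with transgenic replicate 3 at the level of the wild type arrays. The ERGIC proteins, which cycle between both compartments, did not separate on their brightest probe sets, at 0.04 for Ergic1, 0.26 for Ergic2 and 0.08 for Ergic3. A probe set of Ergic3 of the kind that can detect related sequences (suffix x) gave 233, 190 and 231 in transgenic and 262, 364 and 281 in wild type muscle, a difference of -0.43 without overlap. The remaining kept probe sets of Ergic3 gave -0.20, with suffix x, and -0.06, without it, both with overlap. Those of Ergic2 gave -0.12 and -0.18 with overlap, while all 4 kept probe sets of Ergic1 were positive.

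Related genes were set against each other within each array, as the log2 ratio of their brightest probe sets, which asks whether they changed unequally. With 3 arrays against 3, an exact two-sided permutation test cannot go below 0.1, so that none of the 8 pairs could pass, and the ratios are given as a description. The ratio of Copg1 to Copg2 was higher in transgenic muscle by 0.45, that of Copz1 to Copz2 by 0.16, that of Kdelr1 to Kdelr3 by 0.37 and that of Kdelr2 to Kdelr3 by 0.35, each without overlap. The Kdelr ratios share 1 probe set. The ratios of Sec23a to Sec23b, Sec24c to Sec24d, Sar1a to Sar1b and Sec24a to Sec24b overlapped, at 0.05, 0.36, -0.10 and -0.73.

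Probe sets of the same gene gave a further view. Of 97 probe sets for the members, 87 were kept, 64 had positive differences, 27 were higher and 2 lower without overlap, and 0 were called, beside 5.85% higher and 7.5% lower without overlap and 0.122% called (0.0999% higher and 0.0222% lower) among all kept probe sets. In 25 genes with more than 1 kept probe set, all agreed on a positive difference in 13 and on a negative one in 1, and the signs were mixed in 11. Probe sets of 1 gene read the same RNA and are not replicates.

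**Figure D4:**
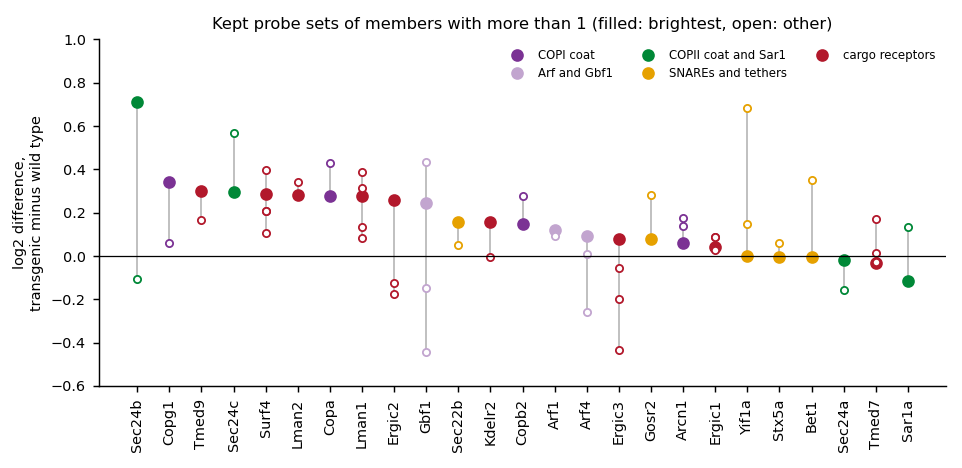
Log2 difference, transgenic minus wild type, of every kept probe set of the 25 members with more than 1, ordered by the brightest probe set (filled). Open points are the other probe sets. All 5 probe sets of Surf4 and of Lman1 lie above 0, while those of Gbf1, Sec24b and Ergic3 spread to both sides.

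Further genes of the same route, 72 in all, were laid beside the members, with 68 kept. Of these, 50 had positive differences, with a median of 0.06, and 0 were called, beside 0.147% of all genes. Without overlap, 7 were higher and 4 lower, or 10.3% and 5.88% beside 6.67% and 7.57% of all genes. Scfd1, a regulator of syntaxin 5, gave 755, 712 and 681 in transgenic and 599, 602 and 645 in wild type muscle, and Rab1b, a GTPase that recruits tethers, gave 887, 856 and 902 in transgenic and 710, 733 and 848 in wild type muscle. Both were separate, at log2 differences of 0.21 each and adjusted p of 0.543 and 0.589 in limma. Use1, a SNARE of the endoplasmic reticulum, gave -0.13 and was separate in the lower direction.

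Among the tethers, Cog8, of the Golgi complex COG, gave 167, 151 and 116 in transgenic and 225, 188 and 212 in wild type muscle, a difference of -0.49 with an adjusted p of 0.378 in limma, the smallest of these genes. That probe set also has the suffix x of those that can detect related sequences. Trappc6a gave 128, 127 and 134 in transgenic and 118, 85.4 and 47.1 in wild type muscle, a difference of 0.62 without overlap. Wild type replicate 3 was low, and wild type replicate 1 came near the transgenic arrays. The Golgi stacking protein Gorasp2 gave 0.30 with overlap. Genes for COPII assembly and exit sites had a median of 0.01, with Tfg at 0.07, Cnih4 at -0.10 and Lman2l at -0.12, and those of the Arf cycle 0.07, with Arf5 at 0.29, Arfgef1 at -0.07 and Arfgap2 at 0.06.

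**Figure D5:**
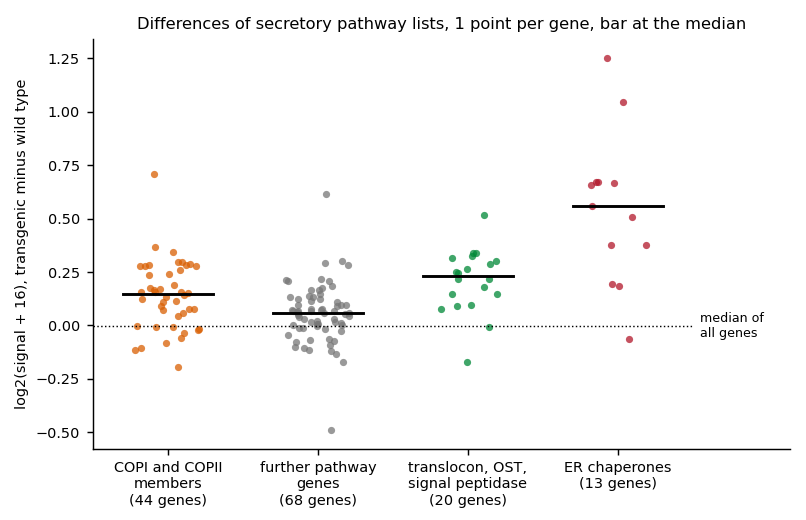
Log2 difference, transgenic minus wild type, of each gene on its brightest kept probe set, for 44 vesicle transport genes, 68 further genes of the route, 20 genes of the translocon, oligosaccharyltransferase (OST) and signal peptidase, and 13 chaperones of the endoplasmic reticulum (ER). Black bars are medians, at 0.15, 0.06, 0.23 and 0.56, and the dotted line is the median of all genes.

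Lists of earlier steps of the secretory route are set beside the members as a scale. The 13 chaperones of the endoplasmic reticulum had a median of 0.56, 11 were higher without overlap, beside 6.67% of all genes, and 5 were called as higher, beside 0.124%. The 5 were Hspa5, Manf, Dnajb9, Hsp90b1 and Calr, at 1.05, 1.25, 0.67, 0.56 and 0.67. The 20 genes of the translocon, oligosaccharyltransferase and signal peptidase had a median of 0.23, 14 were higher and 1 lower without overlap, beside 6.67% and 7.57% of all genes, and 0 were called, with Ddost at 0.52, Spcs2 at 0.31 and Ssr3 at 0.33. The median of the vesicle transport genes, 0.15, lay below both. Whether these lists differ from each other was not tested.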

How the data were processed

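Labelled RNA of 6 pools was hybridised to Affymetrix Mouse430_2 arrays. The deposited intensity per probe set is linear, and the submitters' processing notes name GCOS 1.1.1 without its algorithm. The values show every array scaled to a mean of 150.0 after trimming 2% at each end, which hides any change common to most transcripts. No detection calls were used, and the number of arrays limits the precision.

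Of 45101 rows, 64 control rows were left out. Values were analysed as log2(signal + 16), which understates changes of dim genes. The 27022 probe sets above the 40th percentile of the mean (a signal of about 21.7) entered 1 model in limma 3.58.1 (R 4.3.3) with an intensity trend and no covariates, two-sided, with Benjamini-Hochberg adjustment at 0.05. Spread between RNA pools is what the p-values measure. Symbols came from the platform annotation, updated through gene identifiers to RefSeq (34741 of 34945 matched). The fit was also run on simulated data with independent noise and changes larger than the members' median difference. That run does not speak for differences as small as those of most members. Members, lists, motifs and pairs were chosen with earlier results of these data known.

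The naming rule took Itga7; members called on any probe set; members whose arrays do not overlap; the 2 of smallest p, the brightest and the dimmest of each role; members whose kept probe sets disagree in sign with at least 1 unadjusted p under 0.05; and, of other lists, all calls, otherwise the 3 of smallest p. The remaining members are given so that each is accounted for. Run information gave the hour of hybridisation and 4 fluidics modules, each module of a single genotype. Module and genotype are thus confounded. The 2 rounds were set from that hour, before noon or later, and are not named in the run information.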

Additional observations from a re-analysis of the deposited data

How the results depend on the processing

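Over 20 alternatives of offset, scaling, filter, variance model, block, round, probe set choice and left-out array, the count of called members stayed 0 in those with a test, except where the fluidics module entered as random block. There 3 were called as higher, Copa, Cope and Uso1, at adjusted p of 0.0322, 0.0376 and 0.0434 in limma. In that fit 297 of all 27022 kept probe sets were called, 154 as higher and 143 as lower. However, each module held 1 genotype and the estimated correlation was -0.44. Same-numbered arrays did not deviate together (correlations 0.0030, 0.060 and 0.049), so numbers were not taken as pairs. The replicate block gave 36 calls over all probe sets, 0 called members and a members' median of 0.15. Over all probe sets the 33 calls became 51 with equal array medians, 17 with no filter and 1 without the intensity trend, and 18 to 39 with 1 array left out (18 and 19 without wild type replicates 2 and 1). The members' median moved to 0.22 with equal array medians, where that of all genes moved to 0.062, and to 0.12 in round 1 alone, and ran from 0.10 to 0.17 with 1 array left out, lowest without transgenic replicate 3. The members without overlap were 29 in round 1 alone, 24 of them higher, where 2 arrays against 2 gave 18.1% higher and 21.0% lower among all genes, and 16 to 23 with 1 array left out, where 11.3% to 11.9% of all genes were higher and 12.1% to 13.9% lower.

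Among 22 named genes, 16 of 440 values changed sign, all from differences of at most 0.16. Sar1b became 0.015 with quantile normalization, 0.058 with equal array medians, 0.031 with array weights and 0.074 in round 1, and ran from -0.070 to 0.092 with 1 array left out, the highest without transgenic replicate 3. Bet1 became 0.063 with equal medians, 0.0087 in round 1, 0.013 with the module block and 0.17 as the mean of its probe sets, and ran from -0.045 to 0.059 with 1 array left out. Ergic3 became -0.14 in round 1 and -0.15 as the mean of its probe sets, and ran from -0.056 to 0.21 with 1 array left out. Trappc4 became -0.013 in round 2. Signals near background limit Tmed2 and the dim probe sets. The causes were not tested.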
